A study of Arabidopsis thaliana with 11 samples.

Results

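The regions described here are 2441 places in the nuclear genome of Arabidopsis thaliana that carried ACD15 and ACD21 but no listed wild type peak of RFP-tagged MBD6. They were chosen by peak calls. The merged MBD5/MBD6 list of the authors has 10534 entries on chromosomes 1 to 5, and 7229 of them list both proteins as parents. Of these 7229 regions, 4674 overlapped the merged ACD15 list and the merged ACD21 list by at least 1 bp. No peak of either wild type MBD6-RFP library overlapped 2441 of the 4674, which are called RFP-unlisted regions here because neither wild type list has a peak in them, and 2233 did hold such a peak. The remaining regions comprised 1768 with ACD15 only, 76 with ACD21 only and 711 with neither.

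The series maps chromatin immunoprecipitation signal in inflorescences of Col-0 plants grown on soil in long days. Of 11 libraries, 8 have a peak list used here, and the 3 control libraries without a transgene were not used here. ACD15 was followed as an ACD15.5-3XFLAG transgene and ACD21 as an ACD21.4-3XFLAG transgene, each in 2 libraries of otherwise wild type plants that form batch 1. MBD6-RFP was followed in wild type plants and in acd15 acd21 double mutants, with 2 libraries each, all in batch 2. The promoters of the transgenes, the number of independent lines and the number of plants pooled per sample were not stated. The antibody label reads anti-FLAG for every library although the titles of batch 2 name RFP, so the antibody of that batch is uncertain. FLAG and RFP libraries never share a batch, so the tagged protein, the tag and the batch cannot be told apart. The labels number the replicates but do not say whether different plants were used, and the spread between them may be technical. The FLAG lists held 5661 and 10946 regions for ACD15 and 6774 and 3571 for ACD21, and the RFP lists held 3492 and 1244 for wild type and 3987 and 404 for acd15 acd21, replicate 1 named first in each pair. The numbering of the peaks shows that 53.0% of the peaks numbered in wild type MBD6-RFP replicate 1 remained in its list and 96.5% in replicate 2, and the same shares were 42.9% and 93.1% in acd15 acd21. Peaks taken out before deposit are not analysed here, and peak lists hold no read depth. A region without a peak is therefore a region where none was listed, not one shown to lack the protein.

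MBD5 and MBD6 are methyl-CG-binding domain proteins that bind DNA methylated at CG sites and take part in gene and transposon silencing. ACD15 and ACD21 each carry an alpha-crystallin domain, the fold of small heat shock proteins, and act in a complex with MBD5 and MBD6. In plants, CG methylation lies over transposons and repeats and also in the bodies of many transcribed genes, and methylation near a gene start often goes with silencing.

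Short stretches of the reference show what these regions look like. The 200 bp windows centred on the ACD15 replicate 2 summit are given on the plus strand of TAIR10.1 (RefSeq), 5′ to 3′, with every CG in capitals. The pair shown next had the highest mean rank over the FLAG lists. The stretch at chr1:16902766-16902965 lies between genes, 4221 bp from AT1G44760, and the stretch at chr5:8588853-8589052 lies upstream of COL4.
near AT1G44760: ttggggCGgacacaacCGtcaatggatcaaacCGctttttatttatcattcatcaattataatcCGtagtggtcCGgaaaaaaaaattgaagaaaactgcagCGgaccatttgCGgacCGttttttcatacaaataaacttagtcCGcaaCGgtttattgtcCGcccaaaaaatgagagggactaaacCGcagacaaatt
COL4: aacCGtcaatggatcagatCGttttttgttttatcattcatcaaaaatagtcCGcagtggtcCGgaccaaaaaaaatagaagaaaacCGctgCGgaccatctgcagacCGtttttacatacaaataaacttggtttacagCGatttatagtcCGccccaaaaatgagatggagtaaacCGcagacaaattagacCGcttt

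Both windows are copies of a shared sequence. In a local alignment, 163 of 190 aligned columns were identical between the window near AT1G44760 and the window at COL4 (85.8%), on the same strand. At least 10 of the 12-base words in the window near AT1G44760, read on both strands, recurred in 7 RFP-unlisted regions, its own included, and in 13 regions with MBD6-RFP. Regions sharing words with the window near AT1G44760 stood on both sides of the peak call. These counts were made after the likeness of the windows was seen.

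The next windows show the range of CG density among the 1084 RFP-unlisted regions that had a peak in all 4 FLAG libraries. The highest counts of CG were 21 at VSP2 (chr5:8502806-8503005, upstream of the gene), 21 at AT2G04190 (chr2:1428550-1428749, in an intron) and 19 at AT4G16380 (chr4:9255570-9255769, in a coding exon). CG was absent from 5 of the 1084 windows, and the window shown as an example of these lay upstream of ARLA1A (chr5:14971395-14971594).
VSP2: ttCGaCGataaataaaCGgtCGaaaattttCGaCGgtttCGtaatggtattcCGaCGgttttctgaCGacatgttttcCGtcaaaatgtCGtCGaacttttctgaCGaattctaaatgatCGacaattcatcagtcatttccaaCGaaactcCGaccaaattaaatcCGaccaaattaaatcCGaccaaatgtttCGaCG
AT2G04190: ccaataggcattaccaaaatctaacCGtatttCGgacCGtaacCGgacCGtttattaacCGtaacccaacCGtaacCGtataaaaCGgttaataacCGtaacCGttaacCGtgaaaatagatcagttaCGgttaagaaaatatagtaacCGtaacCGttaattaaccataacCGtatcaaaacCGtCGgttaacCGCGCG
AT4G16380: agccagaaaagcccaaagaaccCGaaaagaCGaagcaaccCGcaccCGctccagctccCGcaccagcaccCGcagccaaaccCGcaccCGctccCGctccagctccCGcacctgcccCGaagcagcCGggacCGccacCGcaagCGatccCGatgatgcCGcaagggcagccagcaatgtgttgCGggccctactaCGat
ARLA1A: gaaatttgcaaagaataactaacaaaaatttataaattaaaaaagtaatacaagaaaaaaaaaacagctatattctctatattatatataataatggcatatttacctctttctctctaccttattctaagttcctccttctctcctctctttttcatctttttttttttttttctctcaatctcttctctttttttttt

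Over all 1084 windows the median was 7 CG, with an interquartile range of 5 to 9. At least 10 CG were found in 23.3% of them, against 8.76% of the 200 bp tiles of chromosomes 1 to 5, and no CG in 0.461%, against 4.84% of the tiles. A median tile held 4 CG. The T-rich window at ARLA1A carried ACD15 and ACD21 peaks with no CG in the 200 bp around the ACD15 summit, where ACD15 reached folds of 3.61 and 6.40 and ACD21 reached 2.62 and 1.94.

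The FLAG signal in RFP-unlisted regions was present in most libraries and lower than in regions with MBD6-RFP. The FLAG lists helped to choose the regions, so how often each library listed them is a description. A peak was listed in ACD15 replicate 1 at 1946 of the 2441 regions (79.7%), against 58.4% of all 7229 regions, and in ACD15 replicate 2 at 2430 (99.5%), against 88.8%. ACD21 replicate 1 listed 2437 (99.8%), against 65.5%, and ACD21 replicate 2 listed 1171 (48.0%), against 39.1%. ACD21 replicate 2, the shortest FLAG list, was the library that most often lacked a peak. Both ACD15 libraries listed 1935 regions (79.3%), against 58.0% of all 7229, and both ACD21 libraries listed 1167 (47.8%), against 38.9%. All 4 FLAG libraries listed 1084 (44.4%), against 36.1%. Of the others, 934 regions had a peak in 3 libraries and 423 in 2. Among regions with MBD6-RFP, 73.5% had a peak in ACD21 replicate 2 and 68.2% in all 4 libraries.

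Fold enrichment here is the peak caller's own value as the authors deposited it, the highest of the peaks that overlap a region. Its median over the RFP-unlisted regions with a peak was 2.44 in ACD15 replicate 1, 3.79 in ACD15 replicate 2, 2.43 in ACD21 replicate 1 and 2.23 in ACD21 replicate 2. Regions with MBD6-RFP had medians of 2.99, 4.62, 3.18 and 2.73 in the same order. The median was lower without MBD6-RFP in each of the 4 libraries, but the distributions overlapped widely. In ACD15 replicate 2, where nearly all regions had a peak, the interquartile range was 3.00 to 4.83 for RFP-unlisted regions and 3.34 to 6.55 for regions with MBD6-RFP. With 2 libraries a group and all peaks of a library sharing its depth, no test was made over regions. Regions with ACD15 only had lower medians still, 1.94 and 2.35 in the ACD15 libraries.

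**Figure D1:**
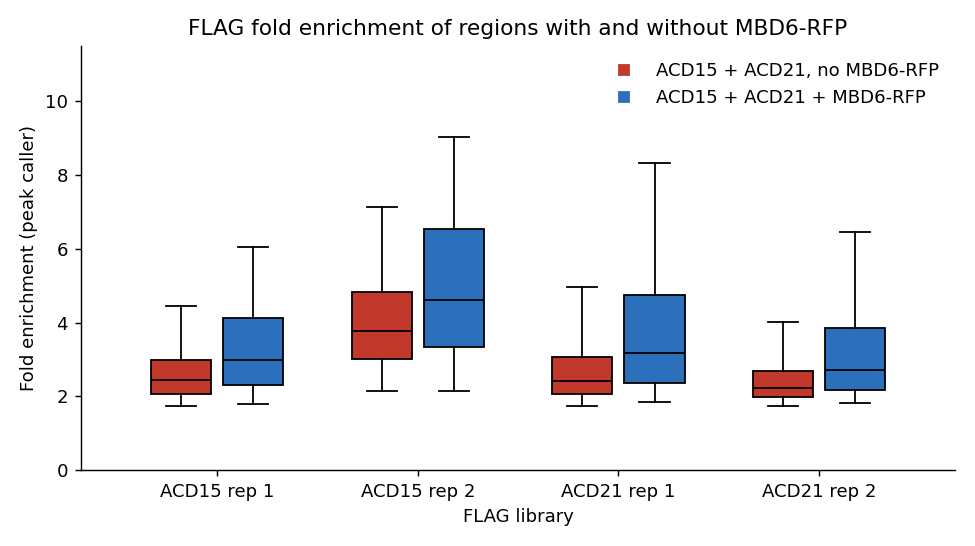
Fold enrichment given by the peak caller (y axis, linear from 0) in each FLAG library (x axis) for regions with ACD15 and ACD21 and no MBD6-RFP peak (red) and for regions with all of them (blue). Boxes span the quartiles with the median as a line and whiskers reach the 5th and 95th percentiles of the regions with a peak in that library; the red medians of 2.44, 3.79, 2.43 and 2.23 lie below the blue ones of 2.99, 4.62, 3.18 and 2.73 and the boxes overlap.

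The share of regions lacking MBD6-RFP varied with FLAG enrichment, CG density and width. Folds in ACD15 replicate 2 and ACD21 replicate 1 were ranked as percentiles of each library's own list and averaged. The 4648 regions with a peak in both of these libraries were split into 10 groups of nearly equal size by this mean. The share without an MBD6-RFP peak was 60.3% in the lowest group, reached 68.4% in the third and was 17.4% in the highest (95% exact binomial interval 14.1 to 21.2, counting error only). Wild type replicate 1 listed 24.6% of the lowest group and 59.6% of the highest. Wild type replicate 2 listed 18.1% of the lowest group, between 7.10% and 10.5% of the second to eighth groups, 21.9% of the ninth and 43.2% of the highest. Of the 275 regions at or above the 90th percentile in each of the 4 FLAG libraries, 38 had no MBD6-RFP peak (13.8%, interval 9.97 to 18.5), and at the 95th percentile 12 of 123 had none (9.76%).

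Regions poor in CG mostly lacked MBD6-RFP. All 4674 regions with ACD15 and ACD21 were also ranked in 10 groups by CG dinucleotides per 100 bp and by width. By CG density, 85.7% of the lowest group and 33.3% of the highest had no MBD6-RFP peak. The libraries differed at the top of this order, since replicate 1 listed 49.5% of the seventh group and 23.3% of the highest, while replicate 2 rose to 48.7% in the highest. Ranked by width, 76.4% of the narrowest and 21.8% of the widest group had no MBD6-RFP peak. A wider region offers more room for an overlap of 1 bp, so width, enrichment and overlap were not separated here.

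**Figure D2:**
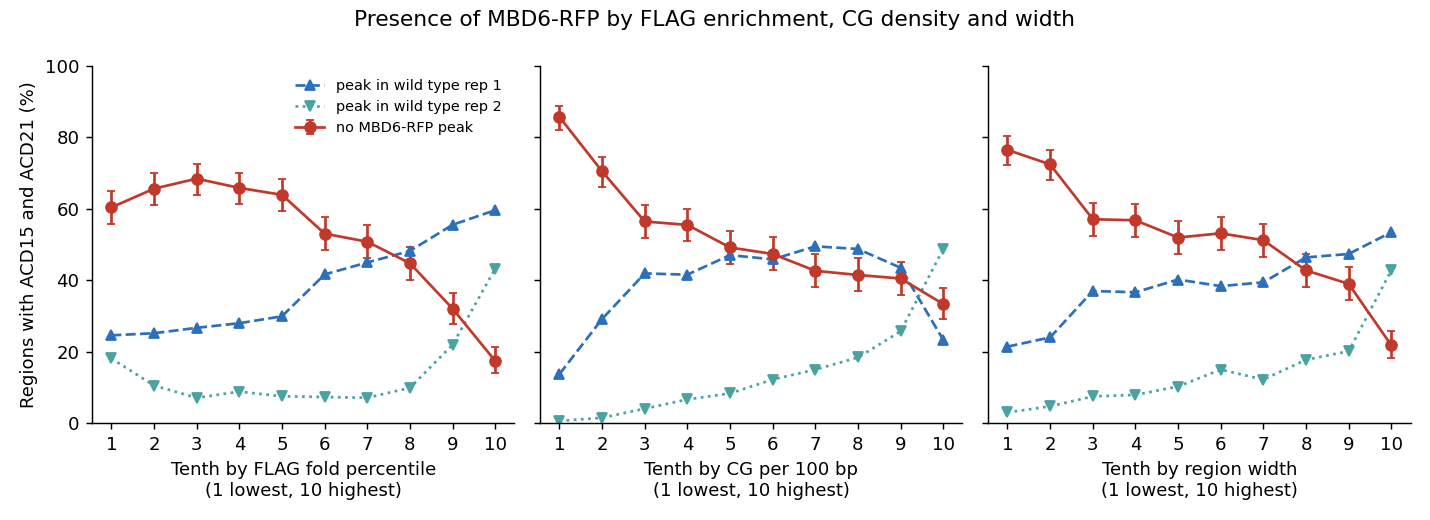
Share (y axis, percent) of regions with ACD15 and ACD21 that had no wild type MBD6-RFP peak (red, error bars are 95% exact binomial intervals), a peak in wild type replicate 1 (blue) or a peak in wild type replicate 2 (green), by group from 1, lowest, to 10, highest, of the FLAG fold percentile, the CG density and the region width (x axes). The FLAG panel holds the 4648 regions with a peak in ACD15 replicate 2 and in ACD21 replicate 1, and the other panels hold all 4674. The red points fall from 60.3% to 17.4%, from 85.7% to 33.3% and from 76.4% to 21.8% between the lowest and the highest group.

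Over whole regions, RFP-unlisted regions were shorter and held fewer CG dinucleotides than regions with MBD6-RFP. The median width was 936 bp (interquartile range 564 to 1647) against 1538 bp (846 to 2689). The median CG density was 2.28 per 100 bp (1.73 to 3.06) against 2.88 (2.25 to 3.66), and 2.32 in regions with ACD15 only. The size of this difference depended on the wild type libraries. Without wild type replicate 2 in the rule the medians were closer, at 2.47 against 2.68, and without replicate 1 they were 2.43 against 3.69. GC content was 30.7% against 33.9%, where 200 bp tiles of the genome had a median of 36.5%. The ratio of observed CG to that expected from the base composition was 0.950 against 0.987, so it differed less than the density did, and the tiles had 0.659. Cytosines in CHG context numbered 3.44 against 4.35 per 100 bp, and those in CHH context 22.8 against 23.8. The ranges of both classes overlapped for every one of these measures.

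The difference in CG density was also present among regions of like width. All 4674 regions were split into 4 groups by width. In the narrowest group (255 to 662 bp) the median was 2.36 CG per 100 bp in 836 RFP-unlisted regions and 3.12 in 332 regions with MBD6-RFP, and in the widest (2119 bp and more) it was 2.09 in 385 and 2.85 in 784. The median ACD15 replicate 2 fold differed in the same direction in all 4 width groups, 3.76 against 4.55 in the narrowest and 3.81 against 4.46 in the widest.

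CG dinucleotides were concentrated at the ACD15 summit, the position of highest signal in a peak. In the 50 bp bin just downstream of the ACD15 replicate 2 summit, RFP-unlisted regions held on average 4.01 CG per 100 bp, against 1.76 in the bin centred 225 bp away and 2.11 in the bin centred 975 bp away. Regions with MBD6-RFP held 5.64, 2.31 and 2.35 at the same places, and regions with ACD15 only 3.67, 1.97 and 2.20. The profile of RFP-unlisted regions therefore lay close to that of ACD15-only regions and below that of regions with MBD6-RFP. GC content followed the same course in RFP-unlisted regions, 36.2% at the summit, 29.6% at 225 bp and 33.2% at 975 bp.

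**Figure D3:**
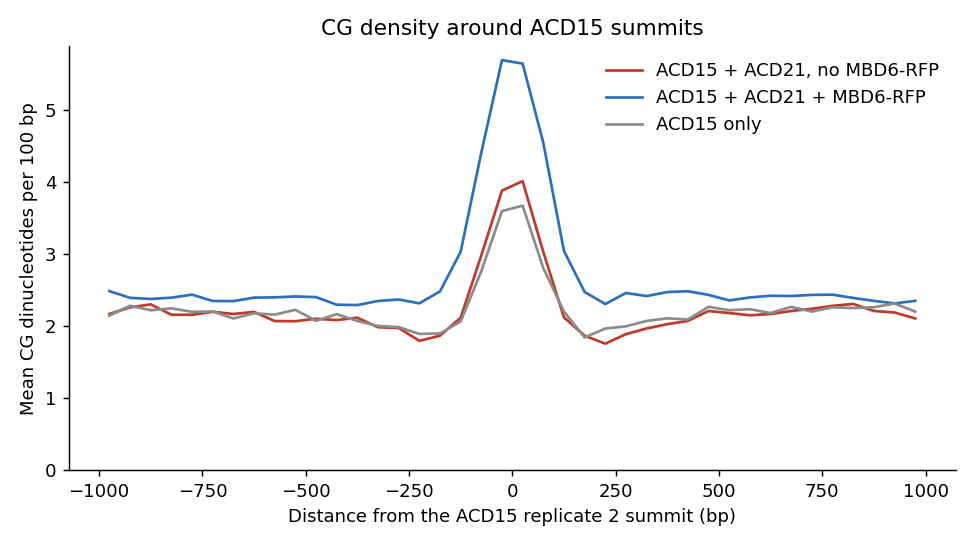
Mean number of CG dinucleotides per 100 bp (y axis, from 0) in 50 bp bins by distance from the ACD15 replicate 2 summit in bp (x axis, up to 1000 bp on either side) for regions with ACD15 and ACD21 without MBD6-RFP (red), with MBD6-RFP (blue) and with ACD15 only (grey). The red line peaks at 4.01, near the grey at 3.67 and below the blue at 5.69.

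ACD15 and ACD21 summits lay at nearly the same position in RFP-unlisted regions. The median distance between the ACD15 replicate 2 and ACD21 replicate 1 summits was 19 bp over 2426 regions, and 79.3% were within 50 bp. Between replicates the median was 16 bp for ACD15 and 16 bp for ACD21, with 83.3% and 82.9% within 50 bp. The distance between the proteins was therefore near that between replicates of 1 protein. In regions with MBD6-RFP it was 17 bp. As a description over RFP-unlisted regions, which share library depth and base composition, the folds of both ACD15 libraries had a Spearman rho of 0.909 over 1935 regions and those of both ACD21 libraries 0.883 over 1167. Between an ACD15 and an ACD21 library rho ran from 0.668 to 0.744.

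RFP-unlisted regions were spread over all 5 chromosomes. Before width was taken into account, their centres lay more often in promoters and gene bodies than those of regions with MBD6-RFP did. Among regions with ACD15 and ACD21, the share without MBD6-RFP was between 50.4% and 53.3% on each chromosome. Gene-poor bins, 100 kb stretches where coding-gene exons cover less than 20% of the bases, held 17.5% of RFP-unlisted regions (interval 16.0 to 19.0) and 29.2% of regions with MBD6-RFP (27.4 to 31.2), with 16.8% for positions taken every 1 kb of the genome. By the annotation at the region centre, 27.6% of RFP-unlisted regions lay in a promoter, defined as 1 kb upstream of a protein-coding gene, 19.0% in a protein-coding gene body, 7.05% in a pseudogene, a class that includes transposon genes in this annotation, and 46.4% elsewhere. The same shares were 20.9%, 14.4%, 15.4% and 49.4% for regions with MBD6-RFP and 13.7%, 54.1%, 8.66% and 23.5% for the genome positions. Both classes were thus under the genome share in gene bodies and over it in promoters. By any overlap in place of the centre, 34.9% of the RFP-unlisted regions touched a gene body. The difference in pseudogenes rested on wild type replicate 2, since without that library in the rule the shares were 11.0% and 11.1%. The gene-poor and promoter differences were smaller without it, at 21.4% against 25.7% and 25.5% against 22.6%. With replicate 1 left out instead they were larger, at 20.0% against 41.8% and 26.1% against 14.1%.

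**Figure D4:**
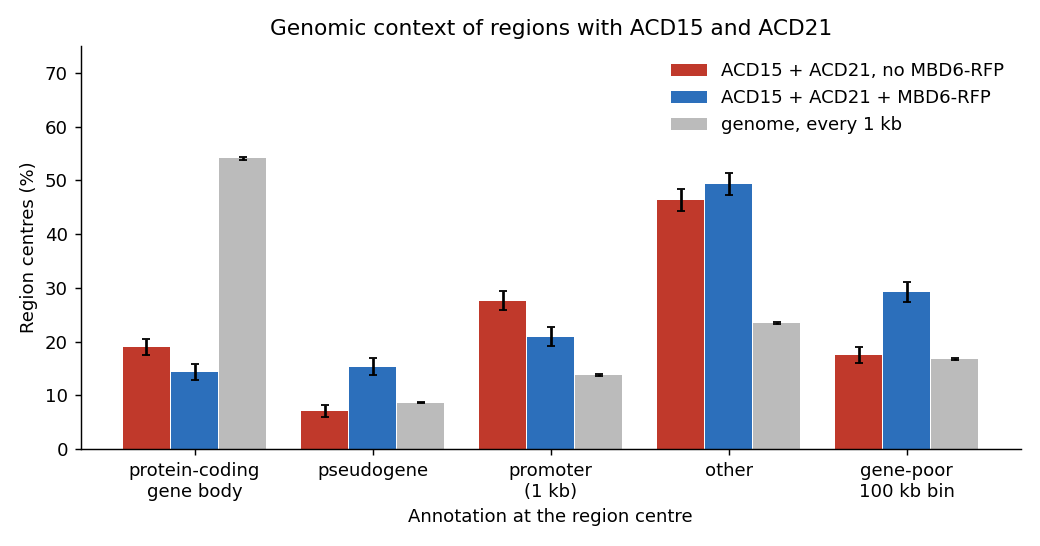
Share of region centres (y axis, percent from 0) in each annotation class (x axis) for regions with ACD15 and ACD21 without MBD6-RFP (red) and with it (blue), and of positions every 1 kb of the genome (grey), with 95% exact binomial intervals; the first 4 classes sum to the whole and the gene-poor bin is counted apart. Pseudogenes hold 7.05% of the red and 15.4% of the blue centres, promoters 27.6% and 20.9%.

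The setting went with differences in sequence and signal among the RFP-unlisted regions themselves. The 674 with a centre in a promoter were the shortest, at a median of 661.5 bp, held 2.15 CG per 100 bp and had the highest ACD15 replicate 2 fold, 4.24. Those in gene bodies, 463, held 3.23 CG per 100 bp at 38.4% GC with a fold of 3.24, and the 172 in pseudogenes held 2.95 CG per 100 bp and were the widest, at 1659.5 bp. A peak in all 4 FLAG libraries was listed for 50.7% of the promoter group and 36.7% of the gene body group. Measured from the ACD15 replicate 2 summit, the nearest start of a gene was at a median distance of 1259 bp, against 1567 bp in regions with MBD6-RFP.

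The distance from RFP-unlisted regions to the nearest MBD6-RFP peak varied widely. Overlap is excluded by the rule, and no distance was computed for other places in the genome. The nearest wild type peak was at a median of 10792 bp, within 1000 bp for 50 regions (2.05%) and within 5000 bp for 709 (29.0%). Just inside the rule, the closest region was 72 bp from a peak, on chromosome 4 at 3354779 to 3355235 in a gene-poor bin, and the shortest overlaps with the ACD15 and ACD21 lists were 161 bp and 56 bp. Just outside it, the shortest overlap of a region with a wild type MBD6-RFP peak was 75 bp, and the closest ACD21 region to an ACD15-only region was 802 bp away. The region farthest from an MBD6-RFP peak, at 372934 bp, lay 1214 bp from CMPG2 on chromosome 5 at 25844436 to 25845467.

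In plants mutant in both small protein genes (acd15 acd21), MBD6-RFP was listed at few of these regions. The mutant libraries had no part in choosing the regions, although they come from the same batch as the wild type MBD6-RFP libraries. The RFP lists of both genotypes also had peaks taken out before deposit. The replicate 1 lists kept 53.0% of the numbered peaks in wild type and 42.9% in acd15 acd21. A place taken out of both would count as lacking both peaks, and the part of this in the shares below was not tested. Replicate 1 listed 66 of the 2441 regions (2.70%), against 19.1% of all 7229 regions, and replicate 2 listed 4 (0.164%), against 3.46%. Either library listed 70 (2.87%, interval 2.24 to 3.61), against 21.7%, and both listed 0, which allows a share of up to 0.151%, against 0.844%. Regions with MBD6-RFP in wild type had a peak in replicate 1 of acd15 acd21 in 43.6% of cases, in replicate 2 in 8.55% and in either in 49.9%. Other regions without a wild type MBD6-RFP peak had a peak in either mutant library in 2.91% of 1411 cases with ACD15 only (2.09 to 3.92), in 5.42% of 553 with neither protein (3.69 to 7.65) and in 12.7% of 55 with ACD21 only (5.27 to 24.5). The share was thus near that of ACD15-only regions and below those of the other classes, which hold few regions. The share also depended on the wild type libraries behind the choice. With wild type replicate 1 left out of the rule there were 4014 regions and 20.1% of them had a mutant peak, and with replicate 2 left out there were 2879 and 8.79%.

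**Figure D5:**
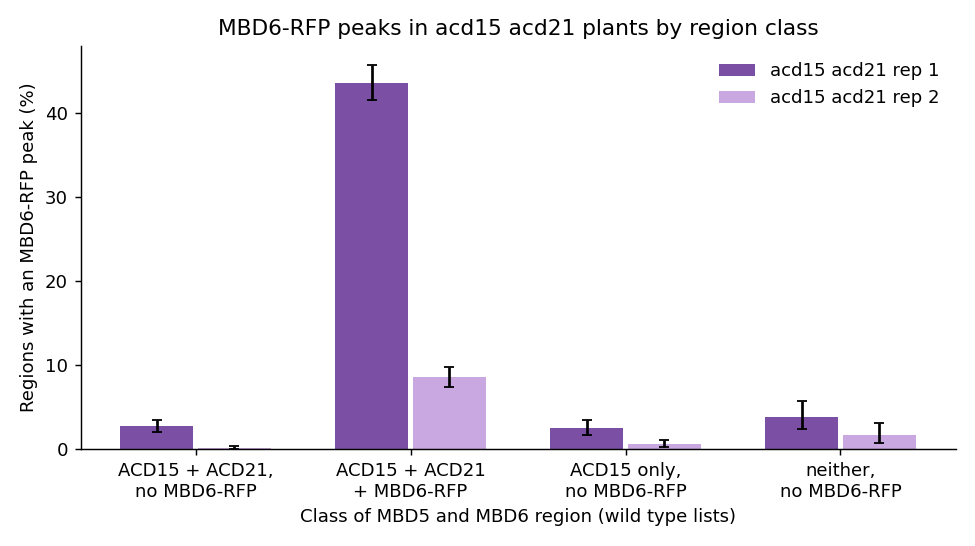
Share (y axis, percent from 0) of regions with an MBD6-RFP peak in each acd15 acd21 library (dark, replicate 1; light, replicate 2) for the classes on the x axis: ACD15 and ACD21 without and with a wild type MBD6-RFP peak, then ACD15 only and neither protein, both without a wild type MBD6-RFP peak. Error bars are 95% exact binomial intervals, and the class with wild type MBD6-RFP, at 43.6% and 8.55%, stands above the others.

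The 70 RFP-unlisted regions with a peak in acd15 acd21 were richer in CG than the other 2371. They had a median of 3.61 CG per 100 bp against 2.26, a GC content of 37.8% against 30.5%, and a width of 1542.5 bp against 917 bp. A gene-poor bin held 31.4% of them against 17.0%, and a pseudogene 22.9% against 6.58%. The median FLAG fold was lower in ACD15 replicate 2, at 3.37 against 3.79, and higher in the other libraries, at 2.66 against 2.44 in ACD15 replicate 1, 2.63 against 2.42 in ACD21 replicate 1 and 3.11 against 2.22 in ACD21 replicate 2. In the 65 of them with both summits, the mutant replicate 1 summit lay a median of 338 bp from the ACD15 replicate 2 summit, and 35.4% were within 50 bp. The same median was 304 bp in 211 regions with ACD15 only. In 970 regions with MBD6-RFP it was 81.5 bp, with 40.1% within 50 bp.

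The highest mutant peak among them was in a region whose ACD15 summits lay 162 bp upstream of TBL13, a gene of the trichome birefringence-like family of cell wall acetylation proteins. The mutant summit was not at these summits. The region, on chromosome 2 at 6184961 to 6187495, had ACD15 folds of 5.18 and 8.51 and ACD21 folds of 7.89 and 5.45, and a mutant replicate 1 fold of 12.6, at percentile 98.4 of that list. Its mutant summit was at 6185389, near the ACD21 summits at 6185330 and 6185335, while the ACD15 summits were both at 6187209. The second highest, with a fold of 10.7, lay on chromosome 2 at 4525866 to 4527760, at a distance of 855 bp from the pseudogene AT2G11350 and 557 bp from a wild type peak. In the region 286 bp from RHA1A, a RING-H2 finger protein gene, the mutant fold was 7.97, with the summit at 6908744 on chromosome 4, close to the ACD15 summits at 6908741 and 6908728. VSP2, a jasmonate-induced vegetative storage protein gene, had a mutant fold of 6.58 in a region of 5832 bp, and the summit there, 8506819, was far from the ACD15 summit at 8502906. The tenth by rank lay 435 bp upstream of MBD02, another methyl-CG-binding domain gene, with a mutant fold of 6.40 and FLAG folds of 4.25, 6.87, 5.22 and 4.06.

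Among single regions, the highest mean rank over all 4 FLAG libraries belonged to the region near AT1G44760, on chromosome 1 at 16902476 to 16906017. ACD15 reached folds of 7.64 and 10.1 there and ACD21 9.34 and 7.49, and the 4 summits lay between 16902854 and 16902870. COL4, a CONSTANS-like B-box gene, had folds of 7.57, 10.2, 8.98 and 7.15 in the same order of libraries, with the ACD15 replicate 2 summit 504 bp upstream of its start. It was also listed in mutant replicate 1, at a fold of 5.07. ACT2, an actin gene transcribed in most tissues, had 8.30, 9.57, 9.03 and 6.94, with its summit in the UTR exon 207 bp from the gene start, and its nearest wild type MBD6-RFP peak was 143445 bp away. The lowest rank of these 3 regions in any FLAG list was percentile 98.5, that of ACT2 in ACD21 replicate 2. The ACT2 sequence is not shown because its window lies in a UTR.

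The other 7 of the top 10 came from different settings. RIE1, which encodes a RING-finger protein, had folds of 7.44, 10.1, 8.61 and 6.76 with the summit 147 bp upstream of the start. ATR, a kinase of the DNA damage response, had 6.27, 9.32, 8.18 and 6.42 at 143 bp upstream. In CKX3, a cytokinin oxidase gene, the summit lay in an intron, with folds of 7.26, 9.95, 8.78 and 6.30. The other regions lay 249 bp from AT2G04650, 186 bp upstream of AT3G51440, 153 bp upstream of AT1G55535 and 396 bp from emb1997, with ACD15 replicate 2 folds of 9.40, 9.76, 8.74 and 9.56. AT3G51440 and AT1G55535 were also listed in mutant replicate 1, at 3.74 and 6.47.

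An ACD15 summit fell from 1 kb upstream to 200 bp downstream of a gene start in 943 of the 2441 RFP-unlisted regions. These touched 1058 protein-coding genes, 384 of them with a symbol. The counts serve only to choose named genes, since none for this window are given for other regions. The ACD15 replicate 2 summit lay up to 500 bp upstream of the nearest gene start in 19.2% of RFP-unlisted regions. The share was 15.7% with MBD6-RFP and 15.3% with ACD15 only. In the next 500 bp upstream the shares were 17.1%, 13.3% and 14.2%. After COL4, RIE1 and ATR, the highest by mean rank were TBL13, VSP2, WRKY22, FRS10, ALB4, TRM18, and ECT9 with NTF2B, which share 1 region. WRKY22, a transcription factor of the immune response, had folds of 5.13, 8.30, 6.72 and 4.72 with the summit 279 bp upstream. ALB4, a thylakoid protein gene, had 5.39, 8.56, 5.73 and 4.68 at 152 bp upstream. ECT9, which encodes a YTH-domain protein, and NTF2B, a nuclear transport factor gene, had 5.72, 8.59, 6.07 and 4.14. None of these last 3 regions was listed in a mutant library, where only 2.87% of all RFP-unlisted regions were listed. Their CG density ran from 1.82 to 2.73 per 100 bp.

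Genes of 5 lists, each gene extended by 1 kb before its start, were compared with all protein-coding genes, 7.62% of which held an RFP-unlisted region and 6.62% a region with MBD6-RFP. The lists were chosen with earlier results of these data known, so the counts are a description and no list was tested. The first list, headed promoter-methylated and imprinted genes, has 17 genes, and the heading was not checked for each of them. Of these 17, 6 held an RFP-unlisted region (FWA, HDG3, HDG8, QQS, ROS1 and RPP7) and 4 a region with MBD6-RFP (AGL36, BNS, HDG8 and RPP7). HDG8 and RPP7 thus held both kinds. Of 21 DNA methylation and silencing genes, 7 held an RFP-unlisted region (33.3%), and 1, MET1, held a region with MBD6-RFP (4.76%), a share near that of all genes. An RFP-unlisted region was held by 1 of 4 complex genes (MBD5), with SLN left out because its symbol was not matched, 1 of 10 abundantly transcribed genes (ACT2) and 0 of 14 floral identity genes. Among these 3 lists, TFL1 of the floral genes and UBC21 of the abundantly transcribed genes held a region with MBD6-RFP.

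At the genes of the promoter-methylated and imprinted list the signal ranged widely. FWA, a homeodomain gene silenced by methylation at its start, had its ACD15 replicate 2 summit 26 bp upstream, with ACD15 at percentiles 72.7 and 84.2 of its lists and ACD21 at 59.5 and 40.8, with the nearest MBD6-RFP peak 69721 bp away. ROS1, a DNA demethylase gene whose promoter methylation goes with its own transcription, was higher, at percentiles 95.2, 97.3, 91.0 and 79.2, and lay 40681 bp from an MBD6-RFP peak. HDG3, an imprinted homeodomain gene, was listed in ACD15 replicate 2 and ACD21 replicate 1 only, with folds of 3.63 and 1.89, 717 bp upstream of the start. HDG8, of the same family, had a region of 344 bp in an intron with folds of 2.58 and 2.38 in the same libraries. QQS, a starch-related gene, had folds of 1.87 and 3.34 for ACD15 and 2.11 in ACD21 replicate 1. RPP7, a downy mildew resistance gene, had a region of 7109 bp with its ACD15 summit in an intron, folds of 3.81, 7.15, 8.44 and 5.09, 7177 bp from an MBD6-RFP peak.

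Among the silencing genes, MORC6, which encodes a MORC-family ATPase, had the highest region, with folds of 6.58 and 9.61 in the ACD15 libraries and 7.18 and 5.31 in the ACD21 libraries. Its summit lay 387 bp from the neighbouring RKF2. Peaks in all 4 FLAG libraries were also found at SUVH5, a histone H3 lysine methyltransferase gene, where the folds were 3.74, 6.29, 3.33 and 2.41 and the summit lay 314 bp upstream of the neighbour AT2G35155. NRPE1, which encodes the large catalytic subunit of RNA polymerase V, had 3.15, 5.70, 3.67 and 2.34, with the summit 368 bp upstream. VIM1, a cofactor of maintenance methylation, had 3.02, 4.98 and 2.83 and no peak in ACD21 replicate 2, and DCL3, a Dicer-like nuclease gene, had 2.24, 3.32 and 1.80 there. SUVH9, which acts in recruiting RNA polymerase V, and NRPD1, the largest subunit of RNA polymerase IV, were listed only in ACD15 replicate 2, at 3.41 and 2.51, and ACD21 replicate 1, at 1.97 and 2.04. The NRPD1 summit was in a coding exon, and that of SUVH9 964 bp upstream. No region of these 7 genes was listed in a mutant library, where only 2.87% of all RFP-unlisted regions were listed.

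The region touching MBD5, on chromosome 3 at 17146862 to 17150865, had folds of 3.10, 6.03, 2.94 and 1.80 and its summit 418 bp upstream of the neighbour AT3G46570, 2804 bp from a wild type MBD6-RFP peak.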

How the data were processed

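MACS2 2.1.0, HOMER, Bowtie2, Trim Galore, Picard and deepTools 3.0.2 are the tools, and TAIR10 the build, per the submitters' processing notes, which give neither order nor settings. For every library there is 1 peak list deposited by the authors, with a score, a fold enrichment (a ratio computed by the peak caller), and −log10 of p and q for each peak. Merged lists of ACD15, ACD21 and MBD5/MBD6 regions were deposited with positions and parent names. Per the names of the deposited lists, peaks of Col-0 were taken out of the FLAG lists and a class of peaks named hyperchip out of the RFP lists; how this was done was not stated.

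Starts were made 1-based, and entries of the same start and end were joined with the highest fold. Coordinates were used with a TAIR10.1 reference whose nuclear chromosome lengths no peak exceeded. Overlap code was tested on simulated data. CG, gene context and distances were computed in Python 3.11.15, pandas 2.3.3 and numpy 2.4.6, and 95% exact (Clopper-Pearson) intervals in scipy 1.17.1; they cover counting error over regions only. No test was made: regions are not replicates, and 2 libraries a group are too few. Members and gene lists were chosen with earlier results of these data known. Named regions are the 10 highest by mean FLAG percentile, the 10 highest with an ACD15 summit in the promoter of a gene with a symbol, list members, the 10 highest with a mutant peak, CG extremes and distance extremes. Windows in a UTR are not printed, and some sequences chosen by the rule are not reported here. Alternatives changed the overlap, peak threshold, libraries, replicates required, distance to MBD6-RFP and the definitions of promoter, gene body, gene-poor bin and CG window.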

Additional observations from a re-analysis of the deposited data

How the results depend on the processing

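With only library peaks of −log10 q of 5 or more, the median folds in RFP-unlisted regions were 2.51 and 3.97 in the ACD15 libraries and 2.52 in ACD21 replicate 1. Requiring a peak in both replicates of ACD15 and of ACD21 left 1083 regions, with a median width of 1096 bp and folds of 2.82, 4.88 and 3.14; fewer and stronger regions enter by construction. Leaving out each library in turn gave 1171 to 4014 regions, the lowest without ACD21 replicate 1 and the highest without wild type MBD6-RFP replicate 1. The share with a mutant peak then ran from 0.164% to 20.1%, the median width from 932.5 to 1094 bp, and the median folds from 2.44 to 2.82, 3.79 to 4.78, 2.42 to 2.62 and 2.23 to 2.36. Under the 11 alternatives that redefined the regions, those without MBD6-RFP had a lower median CG density and a lower share with a mutant peak than those with it. The share in a promoter was 11.7% with 500 bp promoters and 52.2% by any overlap, the gene body share 34.9% by any overlap, and the gene-poor share 8.64% with a limit of 10%. No paired analysis was possible because no result comes from a test. Peak lists give no depth, so which regions lack a peak for want of reads cannot be told apart.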

Other observations

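Repeated sequence was less common in RFP-unlisted regions than in regions with MBD6-RFP. This measure was chosen after the copies near AT1G44760 and at COL4 were seen. It is the share of a region's 31-base words that occur more than once in chromosomes 1 to 5, on either strand. Its median was 3.52% in RFP-unlisted regions, 13.1% in regions with MBD6-RFP and 6.08% in regions with ACD15 only. Of all such words in the genome, pooled, 8.73% were repeated. That share is a total over words and not a median over regions. The medians therefore do not show whether any class was more or less repeated than the genome. The 70 RFP-unlisted regions with a peak in acd15 acd21 had a median of 9.98%. A share of at least 50% was found in 9.30% of RFP-unlisted regions and 14.2% of regions with MBD6-RFP. The handling of reads that map to several places was not stated, and its part in these calls was not tested.

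RFP-unlisted regions overlapped noncoding RNA genes about as often as all 7229 regions did. A long noncoding RNA gene was overlapped by 102 of the 2441 (4.18%), with 4.72% of all regions, 7.39% of regions with MBD6-RFP and 3.17% of regions with ACD15 only. A microRNA gene was overlapped by 10 (0.410%), with 0.650% of all regions and 0.985% of regions with MBD6-RFP, and a tRNA gene by 8 (0.328%), with 0.318% and 0.269%. Width differs between the classes, and a wider region overlaps more genes.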
